A study of Mus musculus with 6 samples.

Results

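Mas-related G protein-coupled receptors are a family of membrane receptors encoded largely in 1 gene cluster of the mouse genome. Here 5 of its genes were described in sorted fetal skin mast cells, namely Mrgprb1, Mrgprx2, Mrgprb2, Mrgprb8 and Mrgprb13. They were chosen by symbol among 55809 gene rows, with earlier results of these data known. All 5 passed the filter on low counts and were among the 16716 genes tested. The symbol Mrgprx2 here names a mouse gene, for which RefSeq also lists the name Mrgprb10.

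Fetal skin of the strain C57BL6J was digested at embryonic day 18.5. The sort took CD45+ F4/80- CD64- cells that carried CD117 (the stem cell factor receptor, gene Kit) and ST2 (the interleukin 33 receptor, gene Il1rl1), F4/80 and CD64 being macrophage markers. Mice of both groups were mated at 8 to 10 weeks of age. Dams of the stressed group underwent 3 daily sessions of restraint, each of 30 min under a 200 W lamp. The labels start this at day 13.5 in one place and at day 13 in another, and end it at day 18.5 or day 18. Control dams had no restraint. Each group held 3 libraries, each from a pool of 4 mice of either sex, or 12 mice per group. The number of dams or litters behind a pool is not stated, and p-values cover pool-to-pool spread only.

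Libraries held 51710555 to 74735139 counts assigned to genes, and 23574 to 24821 genes were detected in each. Mast cell genes were abundant in all 6 libraries, with Cpa3, a granule protease, at 24724 ± 2608 CPM in control and 36184 ± 4548 CPM after stress. CPM is the count scaled to the library size, with TMM factors for composition. Macrophage markers were present as well. Their summed level over 18 genes was 7055 to 8103 CPM in control, 5791 and 5350 CPM in stress replicates 1 and 2, and 8264 CPM in stress replicate 3. Stress replicate 1 also stood apart in its Y-linked counts relative to Xist, with a log2 ratio of 2.80 against -3.27 to -1.32 in the other 5 libraries. Leaving out a library changed the share of genes called, which was 6.19% with all libraries. It was 2.69%, 1.33% and 2.27% without control replicates 1, 2 and 3, 2.67% and 1.14% without stress replicates 1 and 2, and 15.4% without stress replicate 3. With all libraries DESeq2 called 11.9% of genes and limma-voom 5.96%. The gene ranked 3990 of 16716 by p had an unadjusted p of 0.0462 (edgeR's quasi-likelihood test), so values under 0.05 were common. Counts of calls in the lists below are to be read against these shares, as are counts at an unadjusted p.

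Mrgprb2 is known as the mast cell receptor for basic secretagogues, among them substance P and many cationic drugs, and is regarded as the mouse counterpart of human MRGPRX2. It triggers degranulation without immunoglobulin E, through Gq and Gi proteins, calcium release and calcium entry. It is a hallmark of connective tissue mast cells, the type found in skin. The ligands of Mrgprb8 and Mrgprb13 are less well described, and GENCODE M21 lists Mrgprb13 as an unprocessed pseudogene where RefSeq lists it as protein coding.

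The 5 genes have related upstream sequences, and the 250 bases before each annotated start are shown because 3 of the genes share short words that no other Mas-related promoter in the RefSeq table held. These are reference sequences from RefSeq (GRCm38.p6), 5′ to 3′ in the direction of the gene. In Mrgprb1 (chr7:48456343-48456592, minus strand), Mrgprx2 (chr7:48499271-48499520, minus strand) and Mrgprb2 (chr7:48558087-48558336, minus strand), capitals mark words of at least 8 bases present in all 3 in the same order.
Mrgprb1: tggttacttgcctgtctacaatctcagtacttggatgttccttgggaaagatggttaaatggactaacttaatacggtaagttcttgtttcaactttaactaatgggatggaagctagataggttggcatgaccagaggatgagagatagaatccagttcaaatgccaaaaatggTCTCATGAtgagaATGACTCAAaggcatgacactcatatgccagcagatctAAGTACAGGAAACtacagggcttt
Mrgprx2: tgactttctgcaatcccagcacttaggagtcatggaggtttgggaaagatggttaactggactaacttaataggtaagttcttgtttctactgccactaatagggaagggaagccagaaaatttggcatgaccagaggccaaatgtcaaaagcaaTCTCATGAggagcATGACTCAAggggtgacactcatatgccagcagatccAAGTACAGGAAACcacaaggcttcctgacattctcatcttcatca
Mrgprb2: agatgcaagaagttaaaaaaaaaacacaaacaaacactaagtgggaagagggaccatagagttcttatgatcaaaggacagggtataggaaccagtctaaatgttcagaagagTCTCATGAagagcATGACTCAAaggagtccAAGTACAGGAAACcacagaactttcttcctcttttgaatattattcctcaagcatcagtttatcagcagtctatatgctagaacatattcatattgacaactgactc

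The shared words were TCTCATGA, ATGACTCAA and AAGTACAGGAAAC, 30 bases in each promoter. Searched on both strands, AAGTACAGGAAAC occurred in 5 of 32851 promoters of this length (0.0152%), ATGACTCAA in 80 (0.244%) and TCTCATGA in 231 (0.703%). The second word holds TGACTCA, a sequence that AP-1 transcription factors are known to bind. On either strand (TGACTCA or TGAGTCA) that motif, which overlaps the shared word, occurred in 4.46% of promoters. Its first base lay 61 bases before the start in Mrgprb1, 81 in Mrgprx2 and 123 in Mrgprb2, and it was in no other of the 17 Mas-related promoters in the table. That table held 13 of the 15 coding genes of the cluster. Mrgprb3, next to Mrgprb2, and Mrgpra3 were not in it and were not searched. The shared words were chosen after the sequences and the expression values were seen. A match to a word or a motif is a description of letters only.

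Mrgprb8 (chr7:48388276-48388525, plus strand) and Mrgprb13 (chr7:48311054-48311303, plus strand) were alike in another way. Capitals here mark words of at least 12 bases shared by the pair in the same order, 124 bases in all.
Mrgprb8: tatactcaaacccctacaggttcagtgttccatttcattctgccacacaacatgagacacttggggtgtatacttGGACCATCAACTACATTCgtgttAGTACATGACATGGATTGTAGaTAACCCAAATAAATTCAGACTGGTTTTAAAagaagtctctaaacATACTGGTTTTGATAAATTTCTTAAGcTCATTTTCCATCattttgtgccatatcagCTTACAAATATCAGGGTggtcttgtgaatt
Mrgprb13: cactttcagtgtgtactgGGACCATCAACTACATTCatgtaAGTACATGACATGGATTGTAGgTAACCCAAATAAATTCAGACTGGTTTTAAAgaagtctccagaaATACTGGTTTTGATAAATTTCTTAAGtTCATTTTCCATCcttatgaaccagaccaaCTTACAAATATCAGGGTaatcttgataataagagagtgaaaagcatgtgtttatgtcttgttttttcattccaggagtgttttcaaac

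Of the aligned promoter bases, 87.5% of 192 were identical between Mrgprb8 and Mrgprb13, and 86.7% of 218 between Mrgprb1 and Mrgprx2. The transcripts grouped in the same way. Identity over aligned bases was 87.7% for Mrgprb8 with Mrgprb13, 80.1% for Mrgprb1 with Mrgprx2, and 73.4% to 78.4% for the other pairs. No 75-base word of any of the 5 genes was found in a transcript of another gene, and no exon base overlapped another gene in GENCODE M21. A read that matched such a word exactly would not be split between members in that annotation. Shorter reads and reads with mismatches were not examined.

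All 5 receptor genes were higher after prenatal stress, and in each of them every stress library lay above every control library. Mrgprb1 rose 5.70-fold, Mrgprx2 5.48-fold, Mrgprb2 2.47-fold, Mrgprb8 1.87-fold and Mrgprb13 1.47-fold. In the same test 6.19% of genes passed in either direction, 4.34% as higher and 1.85% as lower. Groups that did not overlap were seen in 30.6% of genes and stress wholly above control in 16.0%, so separation alone is common in this comparison. The 5 genes were chosen with earlier results of these data known, so these shares are context and not a test of the set. Because these are bulk samples, more cells carrying a receptor and more RNA per cell cannot be told apart.

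Mrgprb1 stood at 138 CPM in control replicate 1, 80.2 CPM in control replicate 2 and 138 CPM in control replicate 3. After stress it stood at 645, 819 and 561 CPM in replicates 1, 2 and 3. Control replicate 2 was the lowest library and stress replicate 2 the highest, and the lowest stress value was far above the highest control value. The means were 118 ± 33.1 CPM and 675 ± 132 CPM (SD, n = 3 pools), a log2 fold change of 2.51 ± 0.22 (SE). The adjusted p was 0.00139 (edgeR's quasi-likelihood test, Benjamini-Hochberg over all genes tested). By log2 fold change it ranked 23 of 16716 genes.

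The control values of Mrgprx2 were 30.8, 21.7 and 32.7 CPM in replicates 1, 2 and 3, and its stress values were 174, 179 and 113 CPM. The pattern among libraries was close to that of Mrgprb1, with control replicate 2 lowest, but here stress replicates 1 and 2 were nearly equal and replicate 3 was lower. The rise was 5.48-fold (log2 fold change 2.45 ± 0.20, edgeR adjusted p = 0.00105), which ranked 24, next to Mrgprb1.

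Mrgprb2, the secretagogue receptor, had a narrower control range of 100, 87.9 and 107 CPM. After stress it was at 252, 278 and 199.7 CPM. The groups did not overlap, and stress replicate 3 was again the lowest of its group. The log2 fold change was 1.30 ± 0.12 (edgeR adjusted p = 0.00170), rank 134. A rise of more than 2-fold that passed the test was found in 0.802% of genes, 134 in number, and Mrgprb1, Mrgprx2 and Mrgprb2 were among them.

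The lowest of the 5, Mrgprb8, was at 3.38, 2.94 and 3.66 CPM in control (260, 173 and 208 counts) and at 5.77, 6.64 and 6.22 CPM after stress (291, 358 and 346 counts). Its groups were well apart, and stress replicate 3 was not the lowest of its group here. The log2 fold change was 0.90 ± 0.12 (edgeR adjusted p = 0.00803), rank 344.

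Mrgprb13 was at 10.9, 10.6 and 12.3 CPM in control and at 17.0, 17.8 and 14.9 CPM after stress, and 1.47-fold was the smallest rise of the 5. Its log2 fold change was 0.56 ± 0.09 (edgeR adjusted p = 0.0158), rank 945. This call ended when single libraries were left out. The edgeR adjusted p was then 0.0535 without control replicate 1, 0.0788 without control replicate 2, 0.0530 without stress replicate 1 and 0.0684 without stress replicate 2. The log2 fold change in these fits was 0.50 to 0.54. The other 4 genes passed in each fit without 1 library.

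**Figure D1:**
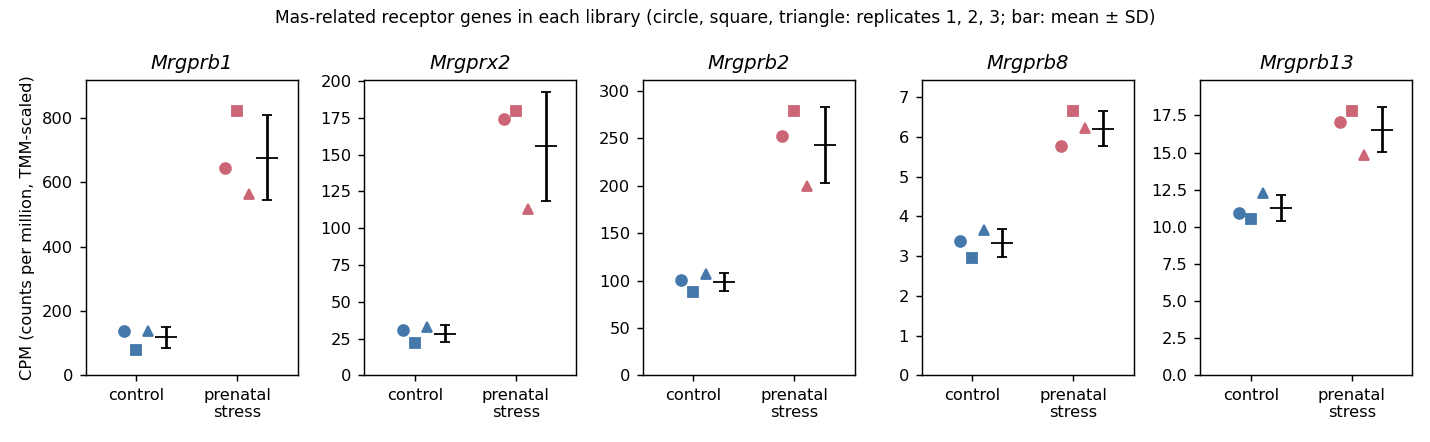
Level of each receptor gene in the 6 libraries, as CPM scaled by TMM on linear axes that start at 0, 1 panel per gene; symbols are pools and bars give the mean ± SD of 3. In each panel all 3 stress pools lie above all 3 control pools, from 561 against at most 138 CPM in Mrgprb1 to 14.9 against at most 12.3 CPM in Mrgprb13.

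Levels of different genes can be set side by side only per length. Divided by the exon bases of the gene in GENCODE M21 (4185 for Mrgprb1, 4735 for Mrgprx2, 2077 for Mrgprb2, 1123 for Mrgprb8 and 985 for Mrgprb13), the order of the genes changed with the group. In each of the 3 control libraries it was Mrgprb2, Mrgprb1, Mrgprb13, Mrgprx2 and Mrgprb8, from high to low. In each of the 3 stress libraries it was Mrgprb1, Mrgprb2, Mrgprx2, Mrgprb13 and Mrgprb8.

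On this scale Mrgprb2 went from 47.5 to 117 CPM per kb and Mrgprb1 from 28.3 to 161 CPM per kb. The level per kb of Mrgprb1 was 0.680, 0.453 and 0.636 times that of Mrgprb2 in control replicates 1, 2 and 3, and 1.27, 1.46 and 1.40 times in the stress replicates. Mrgprb1 was thus below the secretagogue receptor in every control pool and above it in every stress pool. Mrgprx2 and Mrgprb13 changed places as well. Mrgprx2 went from 6.0 to 32.9 CPM per kb and Mrgprb13 from 11.4 to 16.8 CPM per kb, and their ratio was 0.428 to 0.586 in control and 1.59 to 2.13 after stress. Mrgprb8 was last in all 6 libraries, at 2.96 and 5.53 CPM per kb on average. The lengths are sums over all annotated exons, and which isoforms the cells used was not tested.

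**Figure D2:**
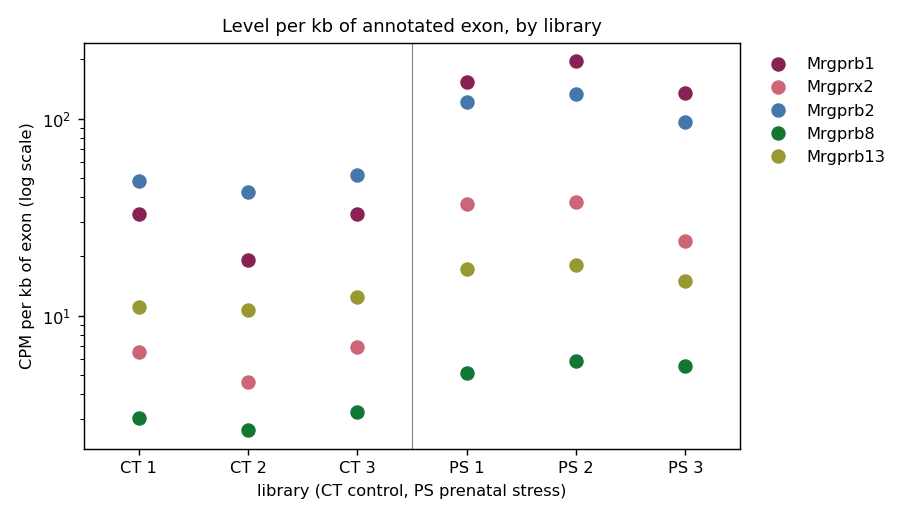
CPM per kb of exon for the 5 receptor genes in each library on a log axis, with control libraries (CT) to the left and prenatal stress libraries (PS) to the right. Mrgprb1 lies under Mrgprb2 in the 3 control libraries and over it in the 3 stress libraries, and Mrgprx2 moves from under to over Mrgprb13.

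The summed level of the 5 genes was 283, 203 and 294 CPM in control and 1094, 1301 and 895 CPM after stress. The mean went from 260.0 ± 49.3 to 1097 ± 203 CPM, 4.22 times as high, and the ranges were far apart. Of the members' counts, not corrected for length, Mrgprb1 made up 45.0% ± 4.86 in control and 61.5% ± 2.24 after stress. The share of Mrgprx2 was 10.9% ± 0.224 and then 14.1% ± 1.67. The share of Mrgprb2 was 38.4% ± 4.20 and then 22.2% ± 0.822. Mrgprb13 and Mrgprb8 held 4.41% and 1.30% in control and 1.53% and 0.577% after stress. The share of Mrgprb2 was thus smaller in the group in which its own level was higher.

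Ratios of 2 genes within a library do not depend on library scaling. Set against Kit, the sort marker and mast cell receptor, all 5 genes were higher in every stress library than in any control. The counts of Mrgprb1 were 0.0716, 0.0491 and 0.0727 of those of Kit in control and 0.278, 0.379 and 0.297 after stress, a mean difference of 2.31 on the log2 scale. The mean log2 difference was 2.22 for Mrgprx2, 1.07 for Mrgprb2, 0.68 for Mrgprb8 and 0.33 for Mrgprb13. Kit itself did not pass, at 1817 ± 158 and 2125 ± 220 CPM (0.23 ± 0.10, edgeR adjusted p = 0.187), but did without stress replicate 3 (0.30, adjusted p = 0.0457).

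Among the members, 9 of 10 pairwise ratios separated the groups completely. These ratios share the same 5 genes, so they are not separate observations and largely restate the unequal fold changes. Of single genes 30.6% had groups that did not overlap. How often ratios of other genes, to Kit or to each other, separate the groups was not counted. The ratio of Mrgprb1 to Mrgprb2 was 1.37, 0.912 and 1.28 in control and 2.56, 2.94 and 2.81 after stress, a log2 difference of 1.24. The ratio of Mrgprb2 to Mrgprb13 differed by 0.74 and that of Mrgprb8 to Mrgprb13 by 0.35. The exception was Mrgprb1 to Mrgprx2. That ratio was 4.46, 3.69 and 4.21 in control and 3.70, 4.57 and 4.96 after stress, so the groups overlapped (log2 difference 0.09, exact two-sided permutation p = 0.5). Over the 15 ratios the other 14 had an exact two-sided permutation p of 0.1, the smallest that 3 against 3 libraries can give, and an adjusted p of 0.107. None can therefore pass 0.05 in this design.

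**Figure D3:**
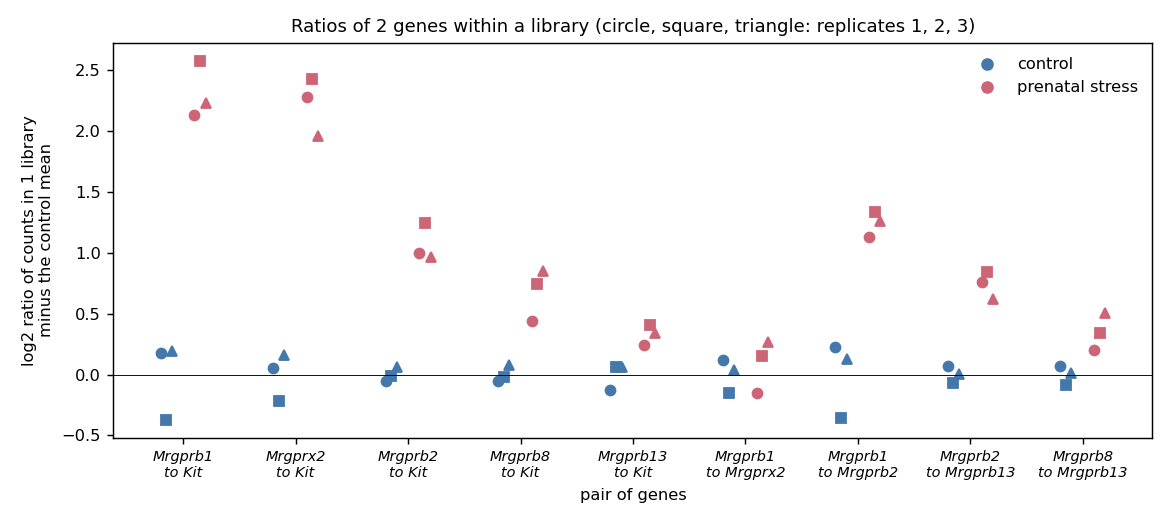
Log2 ratio of the counts of 2 genes within 1 library, minus the control mean of that ratio, for each receptor against Kit and for 4 pairs of receptors; each point is a pool. Control and stress points are apart in every pair drawn except Mrgprb1 to Mrgprx2, where they overlap around 0.

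The members differed from one another in profile as well as in level. The measure of likeness was the root mean square difference of the log2 CPM profiles over the 6 libraries, each centred on its mean, and a smaller value means more alike. It was smallest for Mrgprb1 with Mrgprx2 (0.156), then for Mrgprb8 with Mrgprb13 (0.1997) and for Mrgprb2 with Mrgprb8 (0.241). It was largest for Mrgprb1 with Mrgprb13 (1.02). The 2 pairs most alike in profile were also the 2 pairs most alike in transcript and promoter sequence. A centred profile holds the difference between the groups, so this measure largely restates the fold changes given above. These profiles share libraries and depth, and the values carry no test.

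Among 9611 protein-coding genes with a mean of at least 5 CPM, the 3 nearest in profile to Mrgprb1 were Ptpn3, a protein tyrosine phosphatase (0.240), Sema3e, a secreted semaphorin (0.260), and Tll1, a secreted metalloprotease (0.267). The same 3 genes were nearest to Mrgprx2, with Tll1 first (0.199). Tll1 was at 9.75, 6.32 and 9.38 CPM in control and at 38.9, 40.4 and 26.8 CPM after stress (log2 fold change 2.06 ± 0.19, edgeR adjusted p = 0.00170). As in Mrgprb1, Mrgprx2 and Mrgprb2, control replicate 2 and stress replicate 3 were the lowest of their groups. Nearest to Mrgprb2 were Dusp4, a phosphatase of MAP kinases (0.0820), Itga2, the integrin alpha 2 chain (0.0957), and Hs3st3b1, an enzyme of heparan sulfate modification (0.0963). Dusp4 was at 19.7, 15.2 and 20.7 CPM in control and at 45.1, 47.1 and 34.5 CPM after stress. All 6 of these genes rose and passed in each fit without 1 library. They were picked for likeness to receptors that rose in the same libraries, so their rise and library pattern follow from the choice.

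**Figure D4:**
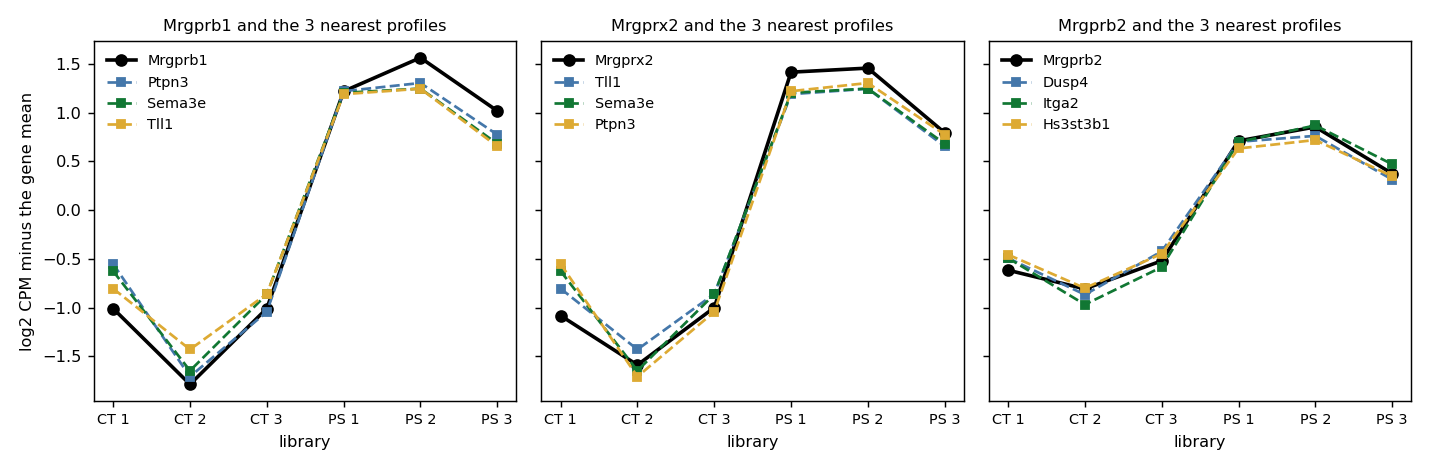
Log2 CPM minus the mean of the gene in each library for Mrgprb1, Mrgprx2 and Mrgprb2 (black) and the 3 genes nearest to each in profile (colours); lines only join the points of 1 gene. Tll1, Sema3e and Ptpn3 appear in both of the first panels, and in all 3 panels control replicate 2 is the lowest control and stress replicate 3 the lowest stress library.

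Most other genes of the family were nearly silent. The files held 34 rows named for Mas-related receptors or Mas1, of which 29 were not members. Of these 29, 17 had 0 counts in all 6 libraries, and 25 had at most 6 counts in any library. Mrgprb4, which is known from sensory neurons, and Mrgprb5 had 0 counts in every library, and Mrgprb3, next to Mrgprb2 in the cluster, had at most 6. A count of 0 allows up to 3 counts, or 0.0391 to 0.0595 CPM depending on the library, for counting error only. The 5 members held 94.0% to 95.0% of all counts of the family in control libraries and 98.1% to 98.5% in stress libraries.

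Of the remaining 4 rows, all tested, none passed. Mrgpre and Mrgpra4 were not silent. Per kb of exon they were at 2.31 and 3.01 CPM in control, near the member Mrgprb8 at 2.96. After stress they were at 2.92 and 3.77 CPM per kb, against 5.53 for Mrgprb8. Mrgpre, a receptor encoded outside the cluster, was at 8.68 ± 1.2 and 11.0 ± 1.62 CPM (log2 fold change 0.34 ± 0.14, edgeR adjusted p = 0.177). Mrgpra4, in the cluster, was at 3.79 ± 0.282 and 4.74 ± 1.20 CPM (0.32 ± 0.18, edgeR adjusted p = 0.309). Both passed without stress replicate 3, Mrgpra4 at 0.50 (adjusted p = 0.0300) and Mrgpre at 0.45 (adjusted p = 0.0337). Of these 2, 1 had an unadjusted p under 0.05 with all libraries, and neither passed with DESeq2 or limma-voom. The pseudogene Mrgprc2-ps was at 1.69 and 2.76 CPM (0.71 ± 0.18, edgeR adjusted p = 0.0530), with no overlap between groups, and Mrgprb11-ps was at 0.274 and 0.483 CPM (0.82 ± 0.46, edgeR adjusted p = 0.309), with overlap.

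In RefSeq order the cluster holds 15 protein-coding Mas-related genes with no other coding gene between them. The 5 members lie side by side, in the order Mrgprb13, Mrgprb8, Mrgprb1, Mrgprx2 and Mrgprb2, followed by Mrgprb3. Along this order the log2 fold changes were 0.56, 0.90, 2.51, 2.45 and 1.30. Of 10 coding genes that flank the cluster, 5 on each side, 8 were tested and 1 passed. This was E2f8, a cell cycle transcription factor, which fell from 29.0 ± 1.35 to 22.7 ± 2.08 CPM (log2 fold change -0.35 ± 0.08, edgeR adjusted p = 0.0387). Its call ended without any 1 of control replicates 1, 2 and 3 or stress replicate 2 (adjusted p 0.0864 to 0.157). The nearest tested neighbours were Zdhhc13 (0.17 ± 0.06, edgeR adjusted p = 0.126) and Tmem86a (-0.59 ± 0.18, edgeR adjusted p = 0.0913). Without stress replicate 3 both passed, Zdhhc13 at 0.20 (adjusted p = 0.0409) and Tmem86a at -0.82 (adjusted p = 0.00482). With DESeq2 Tmem86a (adjusted p = 0.0126) and Tsg101 (0.24, adjusted p = 0.0359) passed as well, and Tmem86a passed with edgeR with no filter (0.00349) and with library totals only (0.0476). With TMM factors and all libraries the edgeR log2 fold changes of Spty2d1, Uevld, Tsg101, Csrp3 and Nav2 lay between -0.08 and 0.23, with adjusted p from 0.0814 to 0.985.

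**Figure D5:**
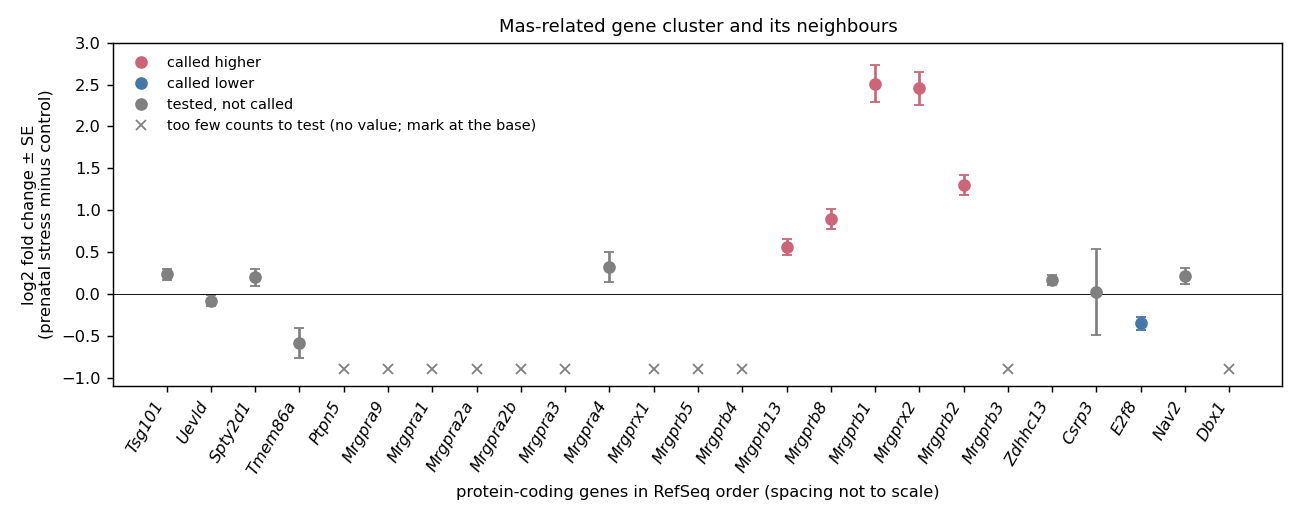
Log2 fold change ± SE (prenatal stress minus control) of the protein-coding genes of the Mas-related cluster and 5 flanking genes on each side, in RefSeq order and not to scale; crosses at the base mark genes with too few counts to test. The 5 genes called higher lie side by side, from 0.56 in Mrgprb13 to 2.51 in Mrgprb1. The tested flanking genes lie between -0.59 and 0.23, and Mrgpra4, in the cluster, lies at 0.32.

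The receptors are known to signal through G proteins, so the rest of the pathway was read from the same fit by lists. The median log2 fold change of all genes tested was -0.00387. Among peptide ligand precursors, 1 of 4 tested genes rose and none fell. This was Tac1, the precursor of substance P, at 58.2, 38.8 and 63.0 CPM in control and at 107, 146 and 116 CPM after stress (log2 fold change 1.20 ± 0.18, edgeR adjusted p = 0.0102), with no overlap. It passed in each fit without 1 library. Adm, the adrenomedullin precursor, was at 1.67 and 1.17 CPM and did not pass (-0.52 ± 0.21, edgeR adjusted p = 0.173), and Tac4 and Adcyap1 were under 1 CPM in both groups and did not pass.

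Of the Gq and phospholipase C arm, which raises calcium, none of 16 genes passed with edgeR (median log2 fold change 0.14). In that list 8 of the 16 had an unadjusted p under 0.05 (edgeR's quasi-likelihood test). Over all 16716 genes, those ranked 3990 and 4172 by that p were at 0.0462 and 0.0505. The list thus held a larger share, a difference that was not tested. DESeq2 called 3 and limma-voom 0, against 11.9% and 5.96% of all genes. Without stress replicate 3, 5 were called higher and 3 lower. Prkcb, a protein kinase C, was at 454 ± 47.0 and 563 ± 34.6 CPM (0.31 ± 0.09, edgeR adjusted p = 0.0696, and 0.0230 without stress replicate 3). Plcb2, a phospholipase C, was at 359 ± 37.4 and 411 ± 49.5 CPM (0.20 ± 0.10, edgeR adjusted p = 0.279).

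Of the Gi and PI3-kinase gamma arm, 5 of 17 tested genes rose and none fell, with a median of 0.21. Gnai1, an inhibitory G protein alpha chain, was at 769, 604 and 743 CPM in control and at 1084, 1272 and 1080 CPM after stress (log2 fold change 0.70 ± 0.11, edgeR adjusted p = 0.0114), and passed in each fit without 1 library. The related Gnai2 stayed outside the calls, at 531 ± 21.6 and 546 ± 10.7 CPM (0.04 ± 0.06, edgeR adjusted p = 0.715). Pik3r6, a regulatory chain of PI3-kinase gamma, rose by 0.37 ± 0.06 (edgeR adjusted p = 0.0150), but not without control replicate 2 (0.0686) or stress replicate 2 (0.0671). Gnai3 (0.31 ± 0.07, edgeR adjusted p = 0.0375), Gnb4 (0.50 ± 0.12, 0.0424) and Gng2 (0.25 ± 0.06, 0.0496) made up the count. The call of Gnai3 held without stress replicate 1 or 3 and otherwise ended (adjusted p 0.0699 to 0.144). The calls of Gnb4 (0.0732 to 0.154) and Gng2 (0.0702 to 0.175) ended without any 1 library other than stress replicate 3. With 1 library left out the count was 2 without control replicate 1, 1 without control replicate 2, 2 without control replicate 3, and 3, 1 and 7 without stress replicates 1, 2 and 3. DESeq2 called 8, limma-voom 5 and edgeR with the replicate number as a block 2, against 11.9%, 5.96% and 3.72% of all genes.

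Receptor kinases and arrestins, which switch such receptors off, gave no call in 7 genes (median 0.06). In this list 1 gene had an unadjusted p under 0.05, and DESeq2 and limma-voom called 0. Grk2 was at 322 ± 14.6 and 323 ± 7.35 CPM and Arrb1 at 195 ± 10.4 and 204 ± 2.35 CPM. Of the RGS proteins, which speed the shut-off of G proteins, 2 of 13 rose (median 0.03). Rgs1 was at 435, 347 and 412 CPM in control and at 674, 801 and 616 CPM after stress (0.81 ± 0.11, edgeR adjusted p = 0.00912), and passed in each fit without 1 library. Rgs10 rose by 0.31 ± 0.07 (edgeR adjusted p = 0.0347), a call that ended without any 1 of control replicates 1, 2 and 3 or stress replicate 2 (0.0537 to 0.150). Of the calcium entry genes, 1 of 11 rose (median 0.05). It was Orai2, a channel subunit, at 95.7, 84.3 and 91.2 CPM in control and at 125, 129 and 121 CPM after stress (0.47 ± 0.06, edgeR adjusted p = 0.00796), and it too passed in each of those fits. Without stress replicate 3 the RGS list held 3 higher and 1 lower call, and the calcium list 2 of each. DESeq2 called 4 RGS and 2 calcium genes, limma-voom 2 and 1, and edgeR with the replicate block 2 and 1.

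The receptors were next set beside the mast cell type markers, since they mark connective tissue mast cells. Of 8 connective tissue granule genes 4 rose (median 0.44). Mcpt4, a chymase of that type, was at 1769, 1366 and 1723 CPM in control and at 3077, 4093 and 2830 CPM after stress (1.04 ± 0.15, edgeR adjusted p = 0.00946), and passed in each fit without 1 library. The calls of Cpa3 (adjusted p 0.0575 to 0.0864) and Cma1 (0.0730 to 0.141) ended without any 1 library other than stress replicate 3. That of Srgn, the granule proteoglycan core, ended without any 1 of control replicates 1, 2 and 3 or stress replicate 2 (0.0504 to 0.0684). The count was 1 without control replicate 1, 2 or 3 or stress replicate 2, 2 without stress replicate 1, and 7 without stress replicate 3. With all libraries DESeq2 called 7 of these granule genes, limma-voom 4 and edgeR with the replicate block 1. Of 5 mucosal mast cell genes 1 rose (median -0.17), the integrin Itga2, at 161, 116 and 151 CPM in control and at 368, 414 and 314 CPM after stress (1.36 ± 0.14, edgeR adjusted p = 0.00218). Itga2 is also the gene second nearest to Mrgprb2 in profile, and it passed in each fit without 1 library.

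Of 10 mast cell identity genes 4 rose (median 0.25). Fcer1a, the ligand-binding chain of the receptor for immunoglobulin E, was at 5.66, 5.36 and 6.25 CPM in control and at 34.8, 33.2 and 14.7 CPM after stress (2.26 ± 0.29, edgeR adjusted p = 0.00666), with stress replicate 3 lowest, as for Mrgprx2. Ms4a2, the beta chain of that receptor, rose by 0.58 ± 0.10 (edgeR adjusted p = 0.0152), but not without control replicate 2 (0.0742). The other calls were Il1rl1 (0.45 ± 0.10, edgeR adjusted p = 0.0312) and Slc18a2 (0.40 ± 0.08, 0.0312), and both ended without any 1 library other than stress replicate 3 (adjusted p 0.0708 to 0.113 and 0.0607 to 0.130). Over the list the count was 1 without control replicate 2, 7 without stress replicate 3 and 2 without any other library. With all libraries DESeq2 called 5, limma-voom 4 and edgeR with the replicate block 2. Fcer1a had the largest log2 fold change of the 3 mast cell lists, beside 2.51 for Mrgprb1 and 2.45 for Mrgprx2, and these differences were not tested.

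Of the 5 sort markers only Il1rl1 passed with all libraries. Ptprc, which encodes CD45, was at 453 ± 9.35 and 491 ± 26.1 CPM (0.12 ± 0.06, edgeR adjusted p = 0.278). The genes of the excluded markers were still read, Adgre1 (F4/80) at 409 ± 29.1 and 305 ± 87.1 CPM (-0.43 ± 0.17, 0.161) and Fcgr1 (CD64) at 78.9 ± 6.26 and 66.9 ± 9.58 CPM (-0.24 ± 0.10, 0.194). Without stress replicate 3 both fell, by 0.69 (adjusted p = 0.00121) and by 0.37 (0.00966).

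Markers of other cells moved with the groups in part. Of 18 macrophage genes 1 rose (Cd68) and 1 fell (Cx3cr1), with a median of -0.26, and without stress replicate 3 the counts were 1 and 12. Cd68 did not pass without control replicate 1, 2 or 3 or stress replicate 1 (adjusted p 0.112 to 0.141). Mrc1, the highest of the list, was at 2294 ± 119.9 and 1942 ± 695 CPM (-0.24 ± 0.21, edgeR adjusted p = 0.508), and at -0.57 without stress replicate 3 (0.00443). With the macrophage markers' mean log2 level as a covariate all 5 receptor genes passed, each with a smaller log2 fold change. It was 2.29 for Mrgprb1, 2.17 for Mrgprx2, 1.14 for Mrgprb2, 0.87 for Mrgprb8 and 0.48 for Mrgprb13, against 2.51, 2.45, 1.30, 0.90 and 0.56 without it. In stress replicate 3, whose macrophage markers were at the control level, Mrgprb1 was at 561 CPM and Mrgprb2 at 199.7 CPM. This was above every control and the lowest of the stress libraries for both, as it was for Mrgprx2 and Mrgprb13. Of 4 genes listed for basophils 3 rose (Mcpt8, Cd200r3 and Il3ra, median 0.49), and which cells carried them was not tested. The summed level of the 4 was 429 to 503 CPM in control and 534 to 639 CPM after stress. With 1 library other than stress replicate 3 left out, 0 to 2 of these passed, with 0 without control replicate 2. Of 8 melanocyte and Schwann cell genes 5 rose (Dct, Pmel, Mlana, Tyr and Tyrp1). The summed level of the 8 was 16.7 to 22.9 CPM in control and 31.6 to 78.5 CPM after stress. The same omissions left 0 to 2 calls, with 0 without control replicate 2, and 7 passed without stress replicate 3. With all libraries DESeq2 called 4 macrophage, 3 basophil and 5 melanocyte and Schwann cell genes. For these lists limma-voom called 2, 3 and 4, and edgeR with the replicate block 1, 2 and 5. The part of macrophage, basophil and melanocyte RNA in the receptor values was not tested.

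Of sensory neuron markers 1 of 3 tested rose, Calca, the precursor of calcitonin gene-related peptide (0.72 ± 0.15, edgeR adjusted p = 0.0321), a call that ended without control replicate 3 (0.0788), stress replicate 1 (0.0858) or stress replicate 2 (0.117). Calca was at 496 ± 114 and 817 ± 71.6 CPM, while the summed level of all 10 neuron markers was 372 to 593 CPM and 738 to 874 CPM, so Calca made up nearly all of it. Of 5 tested neutrophil and eosinophil genes Siglecf rose, a call that ended without any 1 library other than stress replicate 3 (adjusted p 0.0691 to 0.132). The summed level of all 8 genes of that list was 21.3 to 114 CPM in control and 37.0 to 62.5 CPM after stress, with Mpo, its highest gene, at 74.5 CPM in control replicate 2 and 4.48 to 23.4 CPM elsewhere. None passed among 3 lymphocyte, 3 keratinocyte, 8 fibroblast and endothelial and 4 erythroid genes tested with edgeR on all libraries. Without stress replicate 3, 1 passed in each list, namely Cd4 (-0.66, adjusted p = 0.00281), Krt10 (1.92, 0.0492), Col3a1 (0.83, 0.0361) and Hbb-bt (-1.40, 0.0165). In these lists 1, 0, 1 and 2 genes had an unadjusted p under 0.05, DESeq2 called 1, 0, 0 and 2, and limma-voom called 0 in each. The highest genes of these lists were Cd4 (15.9 and 11.6 CPM), Krt10 (0.611 and 1.69 CPM), Col1a1 (31.3 and 42.4 CPM) and Hbb-bs (5.11 and 2.87 CPM).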

How the data were processed

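Each library has 1 deposited table of gene symbols and raw counts, which the authors left unscaled. The submitters' processing notes name FastQC, STAR 2.4 and HTSeq 0.9.1, and the builds GRCm39 and mm10 without a role for either, so coordinates are printed only for the RefSeq promoters, in GRCm38.p6. Per the labels' protocols, libraries were stranded and poly-A selected. How strand was set in the counting, and which annotation served, is not given in the sources used here. Rows that name no gene (18.6% to 20.3% of tallied reads) were left out. Reads that align to several places were not in the gene counts. Of 55809 symbols, 50664 matched GENCODE M21, which gave exon lengths. No protein sequences were used here.

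Genes were filtered with edgeR 4.0.16's filterByExpr (minimum count 10) and scaled with TMM factors, in R 4.3.3. Stress was compared with control by the quasi-likelihood test (glmQLFit, glmQLFTest) with no covariate, with Benjamini-Hochberg adjustment over 16716 genes and a threshold of 0.05. The SE is the log2 fold change divided by the square root of F. Within-library ratios had 0.5 added to each count and were compared by an exact two-sided permutation test. Scripts were tested on simulated data. The members and lists were chosen with earlier results of these data known, and lists are described by counts and medians only. Genes were named by a rule: the members, every tested other Mas-related receptor, ligand precursor and sort marker, up to 4 called and the 2 highest genes of each pathway or mast cell list, the 3 nearest profiles, the flanking genes, and the highest gene of each other cell type. Gng2, Col3a1, Hbb-bt, the 2 pseudogenes and the further called genes of other cell types fall outside it and were named after their values were seen. Rgs2, Trpm7, Stim1 and Itgb7 fall within the rule, were not called by edgeR with all libraries, and their values are not given. Alternatives were RLE, upper-quartile and no composition factors, no filter, stricter filtering (10 counts or more in 3 libraries and a mean of 1 CPM), DESeq2 1.42.0, limma-voom (limma 3.58.1), the replicate number as a block, macrophage markers or the Y to Xist ratio as a covariate, and each library left out in turn.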

Additional observations from a re-analysis of the deposited data

How the results depend on the processing

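Mrgprb1, Mrgprx2, Mrgprb2 and Mrgprb8 kept their direction and passed in all 10 alternatives and in all 6 fits without 1 library. Over those 6 fits the log2 fold change was 2.29 to 2.63 for Mrgprb1, 2.29 to 2.63 for Mrgprx2, 1.19 to 1.42 for Mrgprb2 and 0.82 to 0.97 for Mrgprb8. Mrgprb13 did not pass with the Y to Xist covariate (0.57, edgeR adjusted p = 0.0590), and its log2 fold change without 1 library was 0.50 to 0.62. The cause was not tested.

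The count of genes called over all genes moved more, from 1035 to 2085 with library totals only, 1933 with no filter, 1989 with DESeq2, 622 with the replicate block and 410 with the Y to Xist covariate, and to between 196 and 2647 with 1 library left out, the lowest without stress replicate 2 and the highest without stress replicate 3. Library totals moved the median of all genes to -0.12, and 26.5% of calls were then higher, against 70.0%. All 5 receptor genes still passed as higher there. Same-numbered libraries had correlations of 0.09, -0.01 and 0.07 in their deviations, so the numbers were not taken to pair the pools, and with the block all 5 receptor genes passed. No ratio and no receptor gene changed direction under any alternative run. For Mrgprb1 to Mrgprx2 this says little, because its groups overlapped and its log2 difference was only 0.09 with all libraries. With 3 pools per group no ratio could reach 0.05.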
